A study of Mus musculus with 8 samples.

Results

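The genes described here are the enzymes that place or remove N6-methyladenosine (m6A) on messenger RNA, with the proteins that hold the main writer complex together. The members were chosen by gene symbol, 10 of the 23845 symbols in the tables, and all 10 were found in all 8 libraries. They are Mettl3 and Mettl14, the catalytic pair; Wtap, Rbm15, Zc3h13 and Cbll1, the associated subunits; Mettl16 and Pcif1, methyltransferases that act apart from that complex; and Alkbh5 and Fto, the demethylases. The material was mouse embryonic stem cells (mESC), pluripotent cells kept in culture, at passages 5 to 10, either wild-type (WT) or METTL5 knockout (KO). Each genotype gave 2 libraries of ribosome-protected mRNA fragments taken from the single-ribosome fraction of a gradient (footprints, Ribo-seq) and 2 libraries of RNA from cells at 80% confluence (RNA-seq). The labels name no treatment, no rescue and no number of KO clones, so genotype and clone cannot be told apart. The replicates are called biological, and a p-value here covers no more than the scatter among the libraries of an assay.

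In the nucleus METTL3 binds the methyl donor S-adenosylmethionine and transfers the methyl group, while METTL14 is its catalytically inactive partner that helps to hold the RNA. WTAP anchors the pair to nuclear speckles, RBM15 and ZC3H13 bring the complex to its RNAs and keep it in the nucleus, and CBLL1 (HAKAI) is a ubiquitin ligase found in the same complex. METTL16 methylates U6 small nuclear RNA and the mRNA of Mat2a, PCIF1 methylates the adenosine next to the mRNA cap, and ALKBH5 and FTO are iron-dependent dioxygenases that take methyl groups off again. In embryonic stem cells the writer complex is known for its part in leaving the pluripotent state, since methylation shortens the life of transcripts of pluripotency factors. METTL5, the enzyme removed here, methylates 18S ribosomal RNA and is not part of that complex.

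Library totals ran from 8401463 to 11487964 counts in footprints and from 152195 to 219567 in RNA-seq. Values were scaled to CPM, a count divided by its library's total and scaled to a total of 1000000, and 3 counts equalled 0.261 to 0.357 CPM in footprints and 13.7 to 19.7 CPM in RNA-seq. These floors and the counting intervals below cover counting error only. Mettl5 footprints were at 41.2 and 45.9 CPM in WT and at 4.08 and 4.79 CPM in KO, in the direction of the labels. Mettl5 exons overlap by 169 bases with those of Ssb on the opposite strand. Ssb footprints were at 537 and 553 CPM in WT and at 381 and 383 CPM in KO. Mettl5 RNA was still counted in KO, at 397 and 601 CPM in WT and 256 and 317 CPM in KO. All 8 embryonic stem cell markers were present in footprints, with a summed level of 5137 to 6321 CPM in WT and 6161 to 6442 CPM in KO. Dppa5a was the highest of them (1743 and 2994 CPM in WT, 2979 and 3313 CPM in KO). Zfp42 was lower in KO (1084 and 1096 CPM in WT, 754.3 and 691.1 CPM in KO). Pou5f1 was higher (712.5 and 636.3 CPM in WT, 894.3 and 752.8 CPM in KO), and the rest of the 8 overlapped between the genotypes. Summed levels of markers of other cell types differed between the genotypes, in sums carried by few genes. Summed footprints of 7 fibroblast markers ranged from 70.2 to 147 CPM in WT and from 356 to 478 CPM in KO, those of 4 trophoblast markers from 68.6 to 80.3 and from 263 to 295 CPM, and those of 6 endoderm markers from 77.1 to 127 and from 19.7 to 24.2 CPM. The 3 neural markers summed to 19.6 to 20.8 CPM in WT and 25.4 to 35.5 CPM in KO, and the 3 mesoderm markers to 0.502 to 0.992 and 4.06 to 6.56 CPM. Krt8 and Krt18 made up most of the trophoblast sum (Krt8 at 34.9 and 31.4 CPM in WT and 121.1 and 142.6 CPM in KO), while Elf5 was at 0.764 and 0.476 CPM in WT and 0 and 0.0871 CPM in KO. Cubn made up most of the endoderm sum (65.5 and 115.9 CPM in WT, 18.8 and 12.9 CPM in KO), and Foxa2 overlapped between the genotypes. The fibroblast marker Thy1 went against its list, at 20.2 and 25.1 CPM in WT and 14.8 and 16.4 CPM in KO. Of these marker genes, Afp had no footprint in WT. Their part in the members' values was not tested, and fewer cells of a type and less RNA per cell cannot be told apart in bulk libraries.

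No writer or eraser passed the edgeR quasi-likelihood test in footprints, though some alternative fits called Mettl16 or Mettl3. Mettl16 had the largest difference, with about 0.661 times its WT footprints in KO, followed by Mettl3 at 0.782 times. The other 8 lay between 0.837 times for Zc3h13 and 1.21 times for Pcif1. Of the 10 members, all tested, 0 had a Benjamini-Hochberg adjusted p below 0.05, against 2.44% of the 12315 genes tested. DESeq2 and limma-voom also called 0 members. Mettl16 was called without the filter on low counts, without WT replicate 1 and with the replicate number as a term, and Mettl3 in the last of these; the values stand with the alternatives in the closing section. At an unadjusted p below 0.05 there was 1 member, Mettl16, against 19.4% of all genes. The median log2 fold change (KO over WT) was -0.07 over the members and 0.01 over all genes tested, with 7 members below 0 and 3 above. In 3 members, Mettl3, Zc3h13 and Mettl16, both KO libraries lay below both WT libraries in CPM, and the other 7 overlapped; 25.5% of all genes tested had KO below WT without overlap. A p that missed the threshold does not show that a gene was unchanged, and each gene's 95% interval is given below.

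**Figure D1:**
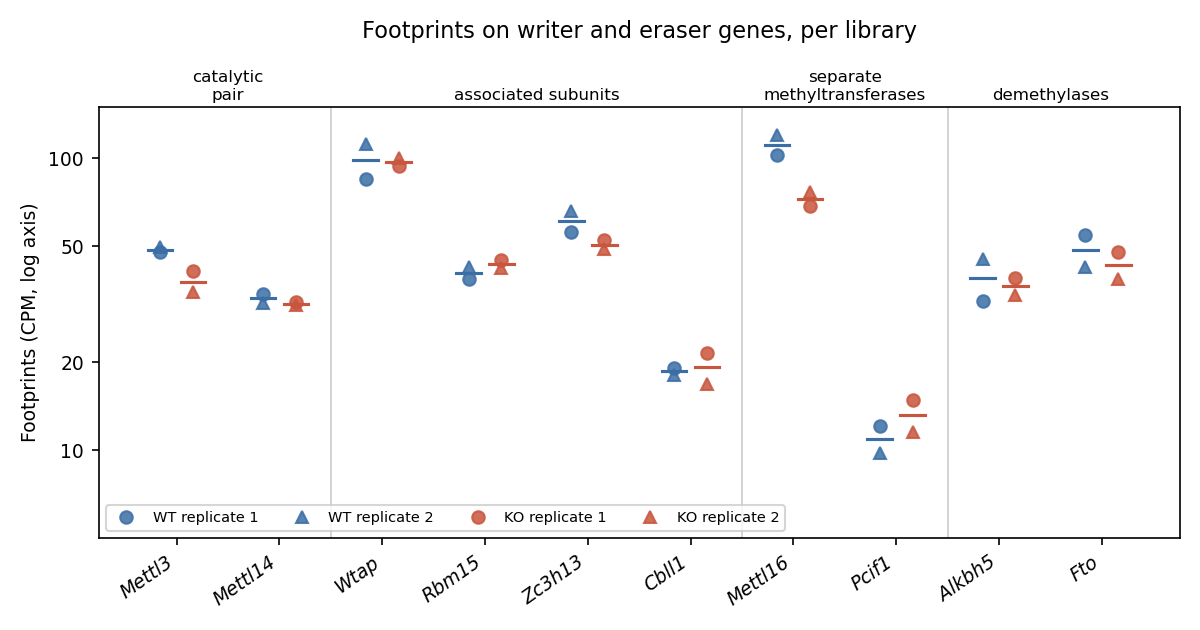
Footprints on each of the 10 genes in CPM on a log axis, with circles for replicate 1, triangles for replicate 2 and a bar for the mean of each genotype. Mettl16 and Mettl3 are the genes whose WT and KO points stand furthest apart, and Wtap, Mettl14 and Cbll1 overlap.

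Of the catalytic pair, Mettl3 had lower footprint values in KO, while Mettl14 was nearly level. Mettl3 stood at 47.7 and 49.7 CPM in the WT libraries and at 41.0 and 34.7 CPM in the KO libraries. The KO values were both below the WT values, and the WT libraries lay closer to each other than the KO libraries did. The log2 fold change was -0.35 (SE 0.17, 95% interval -0.74 to 0.03, adjusted p = 0.301 by edgeR). Mettl3 exons overlap by 933 bases with those of Tox4 on the opposite strand. Tox4 footprints were at 89.1 and 73.5 CPM in WT and at 82.1 and 67.9 CPM in KO. Whether the counting used the strand is not known, and the part of Tox4 in the Mettl3 values was not tested. Mettl14 was at 34.4 and 32.0 CPM in WT and at 32.2 and 31.4 CPM in KO. These 4 values overlapped and spanned a narrow range, and the log2 fold change was -0.05 (SE 0.18, interval -0.45 to 0.35, adjusted p = 0.914). Per length, on the scale of the deposited TPM (counts divided by transcript length, then scaled to the same total in every library), footprints on Mettl14 were 0.554 and 0.494 times those on Mettl3 in WT and 0.603 and 0.694 times in KO. The KO ratios were above the WT ratios, a comparison picked after the values were seen and not tested.

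The footprint files of the same replicate number share a tag in their names (11_25 for number 1 and 12_3 for number 2), and the labels do not say what the tag marks. Differences of KO from WT were therefore also taken within each number, on log2 CPM with a prior count of 2. Mettl3 differed by -0.25 within number 1 and -0.45 within number 2. Mettl14 differed by -0.13 and 0.04, so its direction was not shared. Over all genes tested, the median differences were 0.004 and 0.001. Of the 10 members, 4 were negative within both numbers (Mettl3, Zc3h13, Mettl16 and Fto), 2 were positive within both (Rbm15 and Pcif1), and 4 differed in sign.

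The associated subunits held 0 called genes, with log2 fold changes from -0.26 to 0.11 and a median of 0.02. Wtap, the anchor of the complex, had the highest mean footprint TPM of the members in each genotype, though its WT range overlapped that of Mettl16. In CPM it stood at 85.3 and 111.6 in WT and at 94.4 and 100.1 in KO. Both KO libraries lay inside the WT range, and the fold change was 0.999 (interval 0.759 to 1.31). Rbm15, an RNA-binding adaptor, was at 38.6 and 42.6 CPM in WT and at 44.9 and 42.1 CPM in KO. Its groups overlapped, and the log2 fold change was 0.11 (SE 0.17, interval -0.27 to 0.50, adjusted p = 0.772). Zc3h13, the zinc finger scaffold, was at 55.9 and 66.2 CPM in WT and at 52.6 and 48.7 CPM in KO. Both KO libraries lay below WT, though the gap between the groups, from 52.6 to 55.9 CPM, was smaller than the gap between the WT libraries. Its log2 fold change was -0.26 (SE 0.17, interval -0.64 to 0.12, adjusted p = 0.450), with -0.13 within number 1 and -0.38 within number 2.

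Cbll1, the ubiquitin ligase, was at 19.2 and 18.1 CPM in WT and at 21.6 and 16.9 CPM in KO. The KO libraries lay on either side of the WT libraries, and the log2 fold change was 0.05 (SE 0.20, interval -0.39 to 0.49). Its transcript length, which RSEM weights by isoform, was 4007 bases in both number 1 footprint libraries and 3858 and 3824 bases in the WT and KO libraries of number 2, so the estimated length differed more between the numbers than between the genotypes. The remaining known subunits of the complex were taken from a list of the surrounding pathway. Virma, listed under its older symbol 1110037F02Rik, was at 61.4 and 57.9 CPM in WT and at 51.9 and 55.2 CPM in KO, a log2 difference of -0.14 with an adjusted p of 0.696 by edgeR. Rbm15b, the paralog of Rbm15, was at 4.97 and 4.05 CPM in WT and 6.65 and 4.53 CPM in KO, a log2 difference of 0.30 (adjusted p of 0.634). Neither passed the test.

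Mettl16 footprints were lower in both KO libraries than in both WT libraries. They stood at 102.5 and 119.9 CPM in WT and at 68.4 and 76.8 CPM in KO. The distance between the groups was larger than the distance between the libraries of either genotype. The log2 fold change was -0.60 (SE 0.17, interval -0.97 to -0.22, unadjusted p = 0.0058, adjusted p = 0.102 by edgeR), and 6.7% of all genes tested had a lower log2 fold change. Within number 1 the difference was -0.62 and within number 2 it was -0.58. With the number as a term, the edgeR value was -0.60 (adjusted p = 4.76e-06), in a fit that called 24.0% of all genes. Without the filter on low counts, the edgeR value was -0.59 (adjusted p = 0.0346), in a fit that called 1110 of 17328 genes. Mettl16 lies on the plus strand of chromosome 11, from 74770830 to 74828525 (GRCm38, GENCODE M21), and the median log2 fold change of the 1043 genes tested on that chromosome was -0.25. With each chromosome's median removed, the value of Mettl16 was -0.35 (adjusted p = 0.342). Leaving out WT replicate 1 gave -0.70 with an adjusted p of 0.0352, and leaving out KO replicate 1 gave -0.47 with 0.494.

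**Figure D2:**
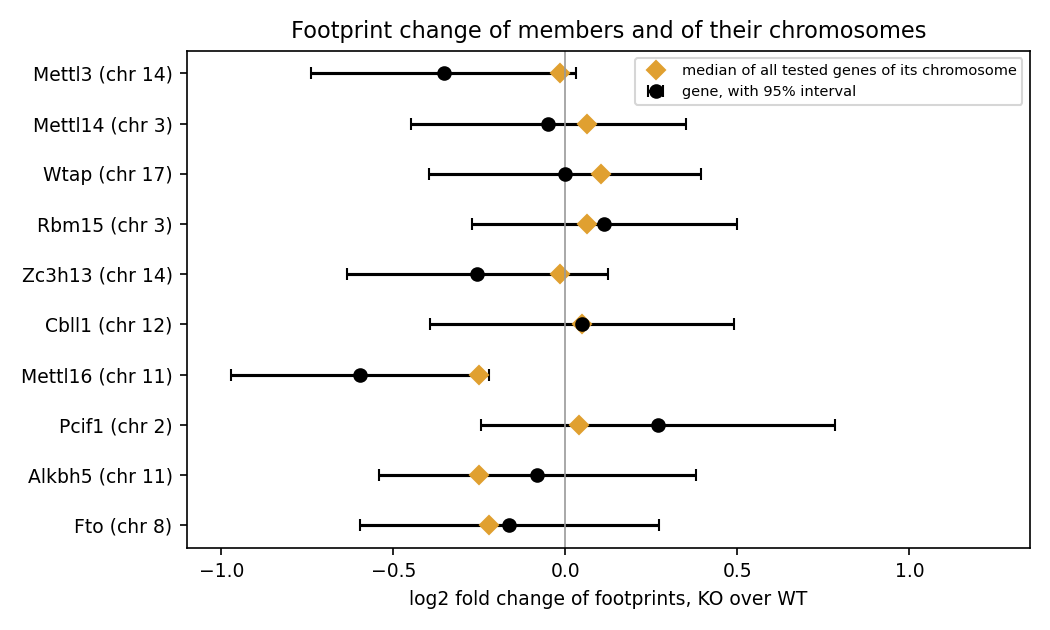
Log2 fold change of footprints (KO over WT) for each member, as a black point with its 95% interval, beside the median of all tested genes on its chromosome as a diamond. The interval of Mettl16, from -0.97 to -0.22, is the one that does not cross 0, and it reaches its chromosome's median of -0.25.

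The best known mRNA target of METTL16 is Mat2a, which encodes the enzyme that makes S-adenosylmethionine. METTL16 recognises a short stretch at hairpins of the Mat2a 3′ end, and the sites are printed to describe this known target. Mat2a had the lowest footprint fold change of the pathway genes after Mettl5, and the part of METTL16 in that value was not tested. The letters TACAGAGAA and TACAGAAAA were searched on the transcript strand of Mat2a (GENCODE M21, GRCm38, minus strand of chromosome 6), and 6 matches were found in its 3′ UTR of 1497 bases, 5 of the first form and 1 of the second. Each is shown 5′ to 3′ with the match in capitals and with its position.
Mat2a site 1, chr6:72434234-72434263: tggcgtaggtTACAGAGAAgccttcaagct
Mat2a site 2, chr6:72433450-72433479: ccttgtgataTACAGAGAAgtcacagggca
Mat2a site 3, chr6:72433271-72433300: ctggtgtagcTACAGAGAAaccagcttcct
Mat2a site 4, chr6:72433156-72433185: atggcgtaagTACAGAGAAgccatcacctc
Mat2a site 5, chr6:72433045-72433074: caaggtgtccTACAGAAAAaccttgggtta
Mat2a site 6, chr6:72432937-72432966: gctggtgtggTACAGAGAAgccagcttgtt
At least 1 of these forms occurred in the last 1497 bases of 4.06% of 16913 protein-coding genes (1 transcript each), and no other gene held more than 4. A match is a description of the sequence and not evidence that the site was methylated in these cells.

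Mat2a footprints were at 466.0 and 233.9 CPM in WT and at 210.8 and 134 CPM in KO. Both KO libraries were below both WT libraries, but WT number 2 and KO number 1 lay close together. The log2 fold change was -1.02 (SE 0.34, interval -1.81 to -0.23, adjusted p = 0.164 by edgeR), and within numbers 1 and 2 it was -1.18 and -0.74. DESeq2 gave Mat2a an adjusted p of 0.0208. Mat2a lies on chromosome 6, where the median of 566 tested genes was -0.38, and with chromosome medians removed its value was -0.64 (adjusted p = 0.3995). Without WT replicate 1 the value was -0.43 (adjusted p = 0.267), and without WT replicate 2 it was -1.44 (0.00113). Mat2a was named after its values were seen, as the known target of a member.

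Pcif1, the cap-adjacent methyltransferase, had the fewest footprints of the members. It stood at 12.1 and 9.76 CPM in WT and at 14.8 and 11.6 CPM in KO. The groups overlapped, and number 1 was the higher library in each genotype. The log2 fold change was 0.27 (SE 0.23, interval -0.24 to 0.78, adjusted p = 0.569), with 0.25 and 0.30 within the numbers. Zfp335, whose exons overlap those of Pcif1 on the other strand, had footprints at 13.8 and 12.1 CPM in WT and at 11.8 and 13.5 CPM in KO.

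The demethylases did not pass the test in footprints. Alkbh5 was at 32.6 and 45.2 CPM in WT and at 38.8 and 34.04 CPM in KO, with both KO libraries inside the WT range. Its log2 fold change was -0.08 (SE 0.20, interval -0.54 to 0.38, adjusted p = 0.873), and the within-number differences had opposite signs, 0.21 and -0.35. Fto was at 54.7 and 42.6 CPM in WT and at 47.8 and 38.7 CPM in KO. Its groups overlapped, with number 1 higher in each genotype, and the log2 fold change was -0.16 (SE 0.19, interval -0.60 to 0.27, adjusted p = 0.702). Alkbh5 lies on the plus strand of chromosome 11 (60536381 to 60558512) and Fto on that of chromosome 8 (91313525 to 91668439, GRCm38), where the median of 676 tested genes was -0.22. With chromosome medians removed, the values turned positive, 0.17 for Alkbh5 and 0.06 for Fto, again without passing the test. The other 7 members lie on chromosomes 2, 3, 12, 14 and 17, whose medians were between -0.02 and 0.10.

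Levels of different genes were compared per length, by the deposited TPM of the footprint tables. These divide by the whole transcript and not by its coding part. Its length runs from 2020 bases for Mettl3 to 6151 for Zc3h13, so the order below holds on that scale only. By mean WT CPM, Alkbh5 (38.9, 6025 bases) stood above Mettl14 (33.2, 2625 bases), the reverse of their TPM order. In WT, Wtap was highest with a mean of 74.7 TPM, followed by Mettl16 at 65.1, Mettl3 at 38.4, Fto at 21.6, Mettl14 at 20.1, Rbm15 at 19.7, Zc3h13 at 15.7, Alkbh5 at 10.2, Cbll1 at 7.51 and Pcif1 at 6.31 TPM. The WT ranges of Wtap and Mettl16 overlapped, as did those of Fto with Mettl14 and of Mettl14 with Rbm15, so these neighbours did not differ beyond their spread. In KO, 8 of the 10 members kept their place, and Fto and Rbm15 exchanged theirs. The ranges of Fto and Rbm15 overlapped in each genotype, so their exchange lay within the spread. The gap between Wtap and Mettl16 was wider there, at 72.8 and 42.2 TPM, with ranges that no longer overlapped. The KO neighbours whose ranges overlapped were Mettl14 with Fto and Cbll1 with Pcif1.

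The RNA-seq tables held few counts for these genes. Alkbh5 alone had at least 10 counts in every library, and 5 members were at 0 in at least 1 library. The filter on low counts left 3 members, Wtap, Pcif1 and Alkbh5, of which 0 were called by edgeR, DESeq2 or limma-voom, against 6.37% of the 2087 genes tested by edgeR. At an unadjusted p below 0.05 there were 2, Pcif1 and Alkbh5, against 23.1% of all genes. In the same RNA-seq libraries the 8 stem cell markers summed to 539.7 to 591.2 CPM in WT and 236.7 to 263.3 CPM in KO (Klf4 at 0 in KO). The 4 trophoblast markers summed to 4.55 to 9.46 CPM in WT, with Cdx2 and Elf5 at 0, and to 132.6 to 184 CPM in KO, with Cdx2 at 0; nearly all of the KO sum was Krt8 and Krt18. The 7 fibroblast markers summed to 0 to 14.2 CPM in WT, with 6 of them at 0, and to 86.5 to 197.1 CPM in KO, with 3 at 0. Most of the KO sum was Tagln, at 157.7 and 80.7 CPM, and Col1a1 had 3 and 1 counts in KO. The endoderm sums overlapped in RNA-seq, at 18.9 to 41.0 CPM in WT and 23.1 to 32.9 CPM in KO, unlike those in footprints. The neural sums overlapped too (0 to 9.46 and 0 to 17.3 CPM), and the mesoderm sums were 9.11 to 9.46 and 11.5 to 26.3 CPM. The part of these markers in the values below was not tested.

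Alkbh5 had 47.6 and 54.2 RNA-seq counts in WT and 22.4 and 24.6 in KO, which is 225.5 and 246.8 CPM against 147.3 and 142.2 CPM. The groups did not overlap, and the log2 fold change was -0.80 (SE 0.34, interval -1.54 to -0.06, adjusted p = 0.180). The RNA-seq median of the 167 genes tested on chromosome 11 was -0.04. Wtap had 10.6 and 19.8 counts in WT and 3.66 and 8.41 in KO, which is 50.01 and 90.0 CPM against 24.1 and 48.5 CPM. The nearest CPM values of the genotypes lay close together, and by the deposited TPM the groups overlapped (58.1 and 113 in WT, 30.4 and 61.1 in KO). Its log2 fold change was -1.04 (SE 0.62, interval -2.39 to 0.32, adjusted p = 0.364). Wtap passed the filter only through its WT counts, so a difference was built into its being tested. The counts of both genes were not whole, because RSEM shares reads between similar sequences.

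Pcif1 went the other way in RNA-seq. It had 3 and 1 counts in WT and 12 and 11 in KO, or 14.2 and 4.55 CPM against 78.8 and 63.4 CPM. The KO libraries were far above the WT libraries, whose values were at or below the floor of 3 counts. Its pooled rate in KO was 7.61 times that in WT (4 against 23 counts, exact counting interval 2.60 to 30.3), and the fitted log2 fold change was 2.75 (SE 0.85, interval 0.89 to 4.62, adjusted p = 0.0805). Pcif1 passed the filter only through its KO counts, so a difference was built into its being tested. It lies on the plus strand of chromosome 2 (164879304 to 164894454, GRCm38), and its exons overlap by 1107 bases with those of Zfp335 on the other strand. Zfp335 was at 23.7 and 13.7 CPM in WT and at 46.0 and 17.3 CPM in KO RNA-seq. Whether the counting used the strand is not known from the labels or headers, so reads of Pcif1 and Zfp335 cannot be told apart where they overlap.

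The other 7 members had between 0 and 6 RNA-seq counts per library and did not pass the filter. Without the filter all 10 members were tested and 0 were called by edgeR, against 196 of 15138 genes. At an unadjusted p below 0.05 there were 2, again Pcif1 and Alkbh5, against 1068 of the 15138. The adjusted p values of the 7 members that failed the filter ran from 0.762 to 0.920. Mettl16 had 6 and 2 counts in WT and 1 and 0 in KO, a pooled ratio of 0.165 whose exact interval ran from 0.00373 to 1.23. Fto had 2 counts in each WT library and 0 in each KO library, all below the floor of 3. Mettl3 had 5 and 2 counts in WT and 4 and 3 in KO, and its exons overlap by 933 bases with those of Tox4 on the opposite strand, which stood at 101 to 257 CPM. Mettl14 and Cbll1 had 0 counts in both WT libraries and in KO number 1, and 2 and 1 counts in KO number 2. Rbm15 had 3 and 4 counts in WT and 2 in each KO library, and Zc3h13 had 0 and 2 in WT and 3 and 2 in KO. Differences in mRNA level of these 7 genes were not detectable at this depth.

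**Figure D3:**
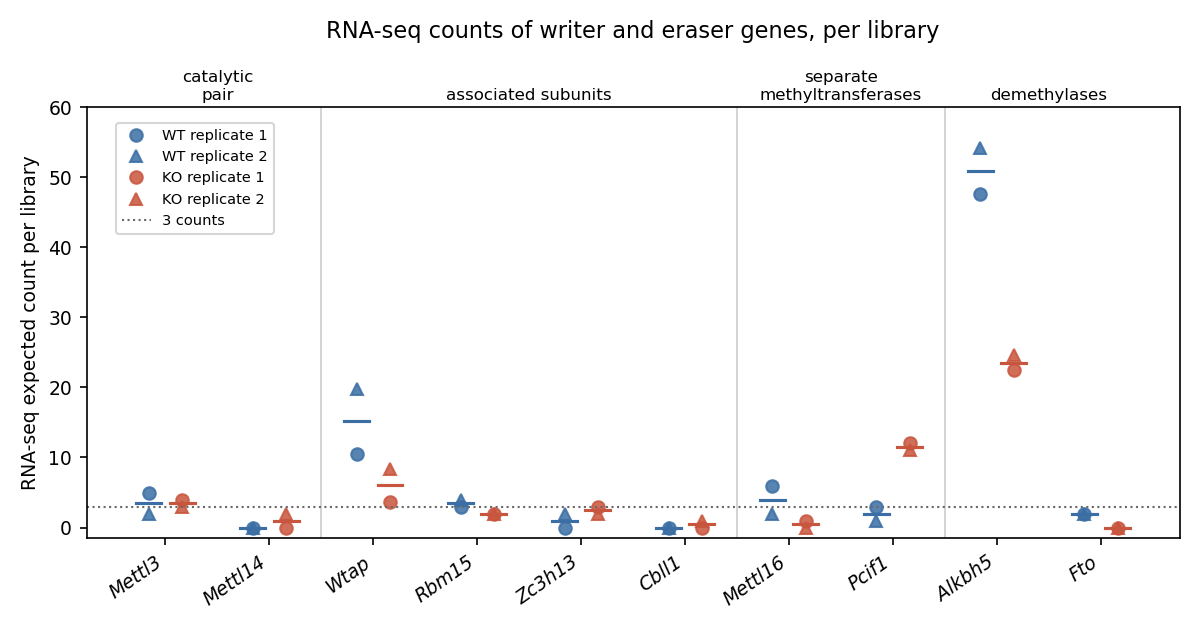
RNA-seq expected counts of each member per library on a linear axis, with circles for replicate 1, triangles for replicate 2, bars for genotype means and a dotted line at 3 counts. Alkbh5 and Wtap have fewer counts in both KO libraries, whose totals are also smaller, Pcif1 has more in both, and the other 7 genes stay at 6 counts or fewer.

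Footprints relative to RNA-seq of the same gene, the translational efficiency, was tested for the same 3 members, those that passed the filter in both assays. The interaction of assay and genotype was called for Pcif1, with a log2 value of -2.52 (SE 0.72, interval -4.09 to -0.94, adjusted p = 0.0482 by edgeR). This set 4 WT RNA-seq counts against footprints that overlapped between the genotypes, and Pcif1 had passed the RNA-seq filter only through its KO counts, a selection that bears on this value as on the RNA-seq one. Of the 1458 genes tested, 4.39% were called lower in KO. The call was lost in 12 of 13 alternatives, among them each of the 8 fits that left out 1 library, with adjusted p values from 0.0493 to 0.181 over the 13. Wtap (1.09, SE 0.55, adjusted p = 0.249) and Alkbh5 (0.76, SE 0.39, adjusted p = 0.257) did not pass. Wtap had passed the RNA-seq filter only through its WT counts, a selection that bears on its value too. Without the filter the interaction was fitted for all 10 members, and 0 were called by edgeR, against 117 of 13247 genes. At an unadjusted p below 0.05 there was 1 member, Pcif1, against 1366 of the 13247.

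A list of 32 genes around the members, all tested in footprints, held 1 called gene, the targeted Mettl5 (log2 fold change -3.27, SE 0.22, adjusted p = 0.00131), against the 2.44% of all genes. The list median was -0.10, with 21 genes below 0. The 10 readers, proteins that bind methylated RNA, had a median of -0.19 and ranged from -0.44 for Hnrnpa2b1 to 0.47 for Igf2bp3, with 0 called by edgeR and 2 at an unadjusted p below 0.05. Both of these genes lie on chromosome 6. With chromosome medians removed, Hnrnpa2b1 was at -0.06 (adjusted p = 0.912 by edgeR) and Igf2bp3 at 0.86 (adjusted p = 0.0586). The 9 genes of the methyl donor cycle, which makes and recycles S-adenosylmethionine, had a median of -0.11, with 0 called by edgeR. At an unadjusted p below 0.05 there were 5 of the 9, 4 lower and 1 higher, against 9 of the whole list of 32 and 19.4% of all genes. The list and its roles were chosen with earlier results of these data known, so these shares only describe it. The 4 lower genes lie on chromosomes with negative medians, Mat2a and Ahcyl2 on 6 (-0.38) and Mat2b and Shmt1 on 11 (-0.25). With chromosome medians removed, no gene of the 9 had an unadjusted p below 0.05 by edgeR, and Ahcyl2 went from -0.42 to -0.04. Without that removal, the smallest p values of the list after Mettl5 were in this group. Mat2b, the regulatory subunit that binds MAT2A, was at 94.97 and 118.1 CPM in WT and at 65.1 and 72.0 CPM in KO, with a fitted difference of -0.62 (SE 0.17, adjusted p = 0.104). Shmt1, the cytosolic serine hydroxymethyltransferase that feeds folate carbon units, was at 427.0 and 336.6 CPM in WT and at 299.1 and 211.4 CPM in KO, with a fitted difference of -0.58 (SE 0.19, adjusted p = 0.155). In both genes the KO libraries were below the WT libraries, and both lie on chromosome 11; with chromosome medians removed the values were -0.37 and -0.33. Shmt2, the mitochondrial counterpart of Shmt1, went the other way, at 232.8 and 245.7 CPM in WT and at 313.3 and 314.2 CPM in KO, with a fitted difference of 0.40 (SE 0.15, adjusted p = 0.184). It was named after its values were seen. The 7 other AlkB dioxygenases had a median of 0.15, with 0 called and Alkbh3 lowest at -0.59 (adjusted p = 0.209).

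**Figure D4:**
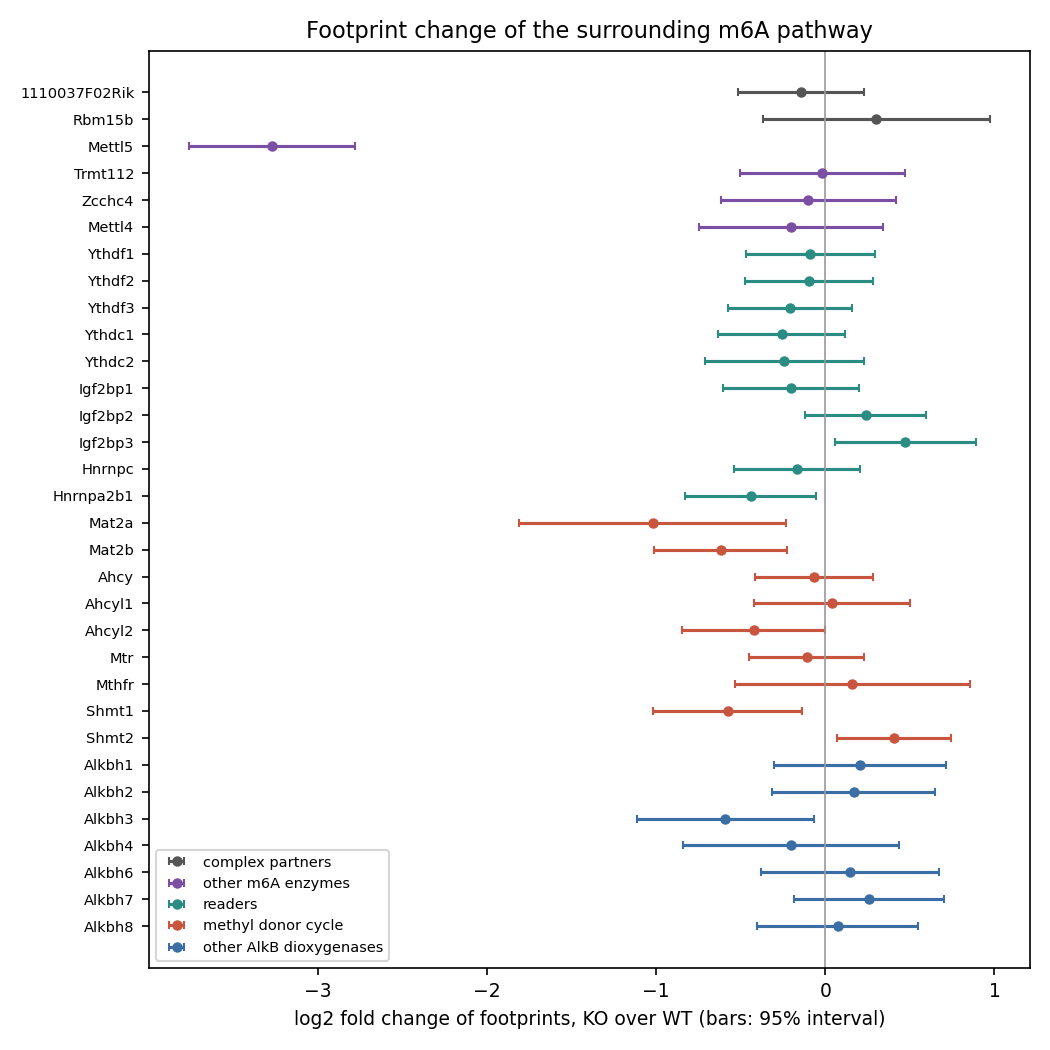
Log2 fold change of footprints (KO over WT) with 95% intervals for 32 genes around the members, coloured by role. Mettl5 stands apart at -3.27, and Mat2a, at -1.02, is the next lowest of the 32.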

How the data were processed

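Ribo-seq and RNA-seq of 8 mESC libraries were used as 1 gene table per library. Per the submitters' processing notes, the tools were RSEM and Bowtie2 (version 2.3.4.3) and the build was mm10; no source at hand states the settings or the use of strand. The authors deposited RSEM expected counts, TPM and FPKM, per the file headers, and lengths as other values. Their FPKM were not used. Samples were grouped by their titles. Expected counts were rounded and tested with edgeR 4.0.16 (robust quasi-likelihood, TMM, filterByExpr with a minimum count of 10, Benjamini-Hochberg over all genes tested, called below 0.05), KO against WT in each assay, and as an assay by genotype interaction over all 8 libraries. Standard errors come from the F statistics. CPM use the library's total expected count. Chromosomes came from RefSeq (23743 of 23845 symbols matched) and positions from GENCODE M21, both on GRCm38, the assembly behind mm10. Alternatives were DESeq2 1.42.0, limma-voom (limma 3.58.1), RLE factors, a minimum mean count of 50 or none, a replicate block, chromosome medians removed and leaving out each library. The steps were run on simulated counts that held no difference between replicate numbers and no shift of whole chromosomes. That run therefore does not bear on such differences in these libraries. Members, roles, the pathway list, the markers and the named genes (all members, the complex partners, called pathway genes and the 3 of smallest p) were chosen with earlier results of these data known. Pathway symbols matched 32 of the tables' genes.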

Additional observations from a re-analysis of the deposited data

Results flagged for a closer look

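Pcif1 differed between the assays under the same contrast of KO with WT. The log2 difference of its footprint change from its RNA-seq change was -2.52 (adjusted p = 0.0482, edgeR). The call held in 1 of 13 alternatives and in 0 of the 8 fits that left out 1 library (adjusted p from 0.0493 to 0.181 over the 13), and Pcif1 passed the filter only through its KO counts. In RNA-seq, KO was higher than WT in 2 of 2 libraries, at 12 and 11 counts against 3 and 1, while the footprint libraries overlapped. The exon overlap with Zfp335 and the filter on low counts stand beside this value in the report, and their part in it was not tested.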

How the results depend on the processing

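With few RNA-seq counts, 7 members had an RNA-seq test only without the filter, and Wtap had none without WT replicate 2. Among alternative values for the members, 146 kept their direction and side of the threshold, 12 lost a call, 4 gained one and 12 changed sign. The replicate block, with the number as a term, called 2 members in footprints, Mettl16 (-0.60, adjusted p = 4.76e-06) and Mettl3 (-0.36, adjusted p = 0.0354), against 24.0% of all genes (2960 called). It called 9 of the 32 pathway genes (2 higher, 7 lower), 5 of them among the 9 of the methyl donor cycle (1 higher, 4 lower). That list was chosen with earlier results of these data known. Replicate differences in WT and KO correlated across genes by 0.397 in footprints and 0.031 in RNA-seq, and no label says that a number pairs libraries. Without the filter Mettl16 was also called by edgeR (-0.59, adjusted p = 0.0346), against 1110 of the 17328 genes tested. Without WT replicate 1, a fit with 1 WT library, the value of Mettl16 was -0.70. Footprint calls, 301 as reported, were 1110 without the filter, 186 at a mean count of at least 50, and 189 (without KO replicate 2) to 761 (without WT replicate 1) with 1 library left out. RNA-seq calls, 133 as reported, were 75 by DESeq2, 57 by limma-voom and 73 (without KO replicate 1) to 242 (without WT replicate 1) with 1 library left out. Translational efficiency calls, 133 as reported, were 87 by limma-voom. They were 82, 25 and 53 without the RNA-seq libraries WT 2, KO 1 and KO 2, and 75, 77, 37 and 15 without the footprint libraries WT 1, WT 2, KO 1 and KO 2. Footprint log2 fold changes that changed sign were all uncalled and reached 0.197 (Wtap without WT replicate 2). Wtap was 0.011 by limma-voom, 0.013 at a mean count of at least 50, 0.003 without the filter, 0.006 with the replicate block, and -0.179 to 0.197 with 1 library left out. Alkbh5 and Fto were 0.168 and 0.060 with chromosome medians removed. With 1 library left out, Alkbh5 ran from -0.297 to 0.164, Fto from -0.337 to 0.034, Mettl14 from -0.107 to 0.008 and Cbll1 from -0.085 to 0.177. The cause was not tested.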
